A study of Mus musculus with 2 samples.

Results

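Trem2, Tyrobp, Gpnmb, Spp1, Cd9 and Lgals3 are genes of macrophages that take up lipid and debris, and they were chosen by name. All 6 were found among the 29413 genes whose Ensembl identifier was held by both deposited matrices, and none shares exonic bases with a gene that only 1 matrix lists. TREM2 is a surface receptor for lipids and lipoproteins that signals through the adaptor DAP12, which Tyrobp encodes. GPNMB is a lysosomal and surface glycoprotein under control of the MiT/TFE transcription factors, SPP1 (osteopontin) is a secreted ligand of integrins and CD44, CD9 is a membrane tetraspanin, and LGALS3 (galectin-3) is a lectin that marks damaged lysosomes. In the lung, alveolar macrophages clear surfactant lipid, while interstitial macrophages and monocyte-derived cells lie in the tissue, and the Trem2 and Gpnmb state is known from lipid-rich and scarred tissue and from tumours.

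Immune cells were sorted from metastatic lungs of female Balb/c mice 7 days after labelling-4T1 cells, a line of mouse mammary carcinoma, had been given intravenously. The first group is immune cells of the metastatic niche and the other immune cells of distal lung, each a single library of a 10x 3′ kit. Strain, sex, tissue, tumour line and day are shared, and the titles set apart only the place in the lung. How cells were gated and how many animals were pooled was not found in the labels. No test was possible with 1 library per group: each difference below separates these 2 libraries only, and every interval is a 95% interval for counting error in UMIs (unique molecular identifiers, each standing for 1 captured RNA molecule) or cells.

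The distal library gave 3536 cells after filtering, with a median of 5789.5 UMIs, and the niche library 3080 cells with a median of 11192.5. Only 4 cell barcodes occurred in both, and 1 niche cell of the monocyte/macrophage-like class carried one. Clusters were made without the 6 genes and named from markers. The largest group for these genes was monocyte/macrophage-like, with 393 distal and 1974 niche cells, while 1123 of the alveolar macrophage-like cells were distal and 9 niche. Interstitial macrophage-like cells numbered 133 and 95. Different clusters led the monocyte/macrophage-like class in the 2 libraries: cluster 3, with Fabp5, Apoe and Acp5 among its leading genes, made up 35.1% of it in the distal library, and cluster 1, with Cxcl9 and Ly6i, 35.5% in the niche library. Values are therefore also given within clusters. Alveolar macrophage markers, 10 genes summed, stood at 98.4 CPM (counts scaled to a common UMI total, the usual measure of level) in distal and 22.0 CPM in niche monocyte/macrophage-like cells, against 6332 CPM in alveolar macrophage-like cells. All 10 markers had a UMI in the distal class, while Krt79, Car4 and Cidec were at 0 in the niche class. In the distal class Marco had 21.2 CPM, above its 11.4 CPM in alveolar macrophage-like cells. Of its 72 UMIs there, 71 came from cluster 23. In the niche class Pparg at 11.7 CPM and Chil3 at 9.25 CPM made up most of the sum.

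The genes lie on 5 chromosomes of GRCm38, by the GENCODE annotation: Trem2 on chr17:48346401-48354147, Tyrobp on chr7:30413760-30417585, Gpnmb on chr6:49036546-49070929, Spp1 on chr5:104435118-104441050, Cd9 on chr6:125460266-125494791 and Lgals3 on chr14:47367751-47386160, with Cd9 on the minus strand and the others on the plus strand. Spp1 shares exonic bases on its strand with Gm42793, which neither matrix lists. The 250 bases before the RefSeq start are shown for 3 of them (GRCm38.p6, plus strand, 5′ to 3′). Trem2 and Gpnmb were the pair with the highest co-detection below. Spp1 was the gene of the 6 that differed most upward between the libraries in monocyte/macrophage-like cells. Capitals mark matches on either strand to GAGGAA (the PU.1 core), TGANTCA (AP-1, with any central base), ACCACA (RUNX), CACGTG or CATGTG (E-boxes). The windows are chr17:48346151-48346400, chr6:49036268-49036517 and, for the first of 2 Spp1 entries, chr5:104434861-104435110.
Trem2: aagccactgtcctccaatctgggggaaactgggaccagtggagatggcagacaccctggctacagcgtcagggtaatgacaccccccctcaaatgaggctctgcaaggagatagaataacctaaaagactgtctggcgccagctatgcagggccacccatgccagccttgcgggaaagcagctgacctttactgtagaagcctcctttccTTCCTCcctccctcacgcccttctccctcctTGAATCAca
Gpnmb: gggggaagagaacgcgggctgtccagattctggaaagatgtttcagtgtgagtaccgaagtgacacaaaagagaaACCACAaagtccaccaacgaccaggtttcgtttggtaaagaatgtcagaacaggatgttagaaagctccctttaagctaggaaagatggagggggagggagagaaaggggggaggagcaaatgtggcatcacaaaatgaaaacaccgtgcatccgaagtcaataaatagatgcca
Spp1: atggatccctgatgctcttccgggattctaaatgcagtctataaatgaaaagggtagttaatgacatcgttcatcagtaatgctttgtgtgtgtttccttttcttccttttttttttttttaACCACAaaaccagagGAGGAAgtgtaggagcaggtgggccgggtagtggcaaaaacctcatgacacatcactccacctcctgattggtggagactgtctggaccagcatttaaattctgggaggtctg
The Trem2 window held a PU.1 core 40 to 35 bases and an AP-1 match 9 to 3 bases before the start. The Gpnmb window held only the RUNX match, 175 to 170 bases before the start, and the Spp1 window a PU.1 core at 113 to 108 and a RUNX match at 128 to 123 bases, none of them overlapping another. In the windows not shown, Cd9 held an E-box match, as CACATG, 38 to 33 bases before the start, and Lgals3 and the other Spp1 entry held no match. Of all 32851 windows of this length, 23.3% held the PU.1 core, 6.75% AP-1, 14.05% RUNX, 6.02% CACGTG and 12.3% CATGTG. A match is a match of letters and not a binding site, and RefSeq entries were found for 5 of the 6 genes, all but Tyrobp.

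**Figure D1:**
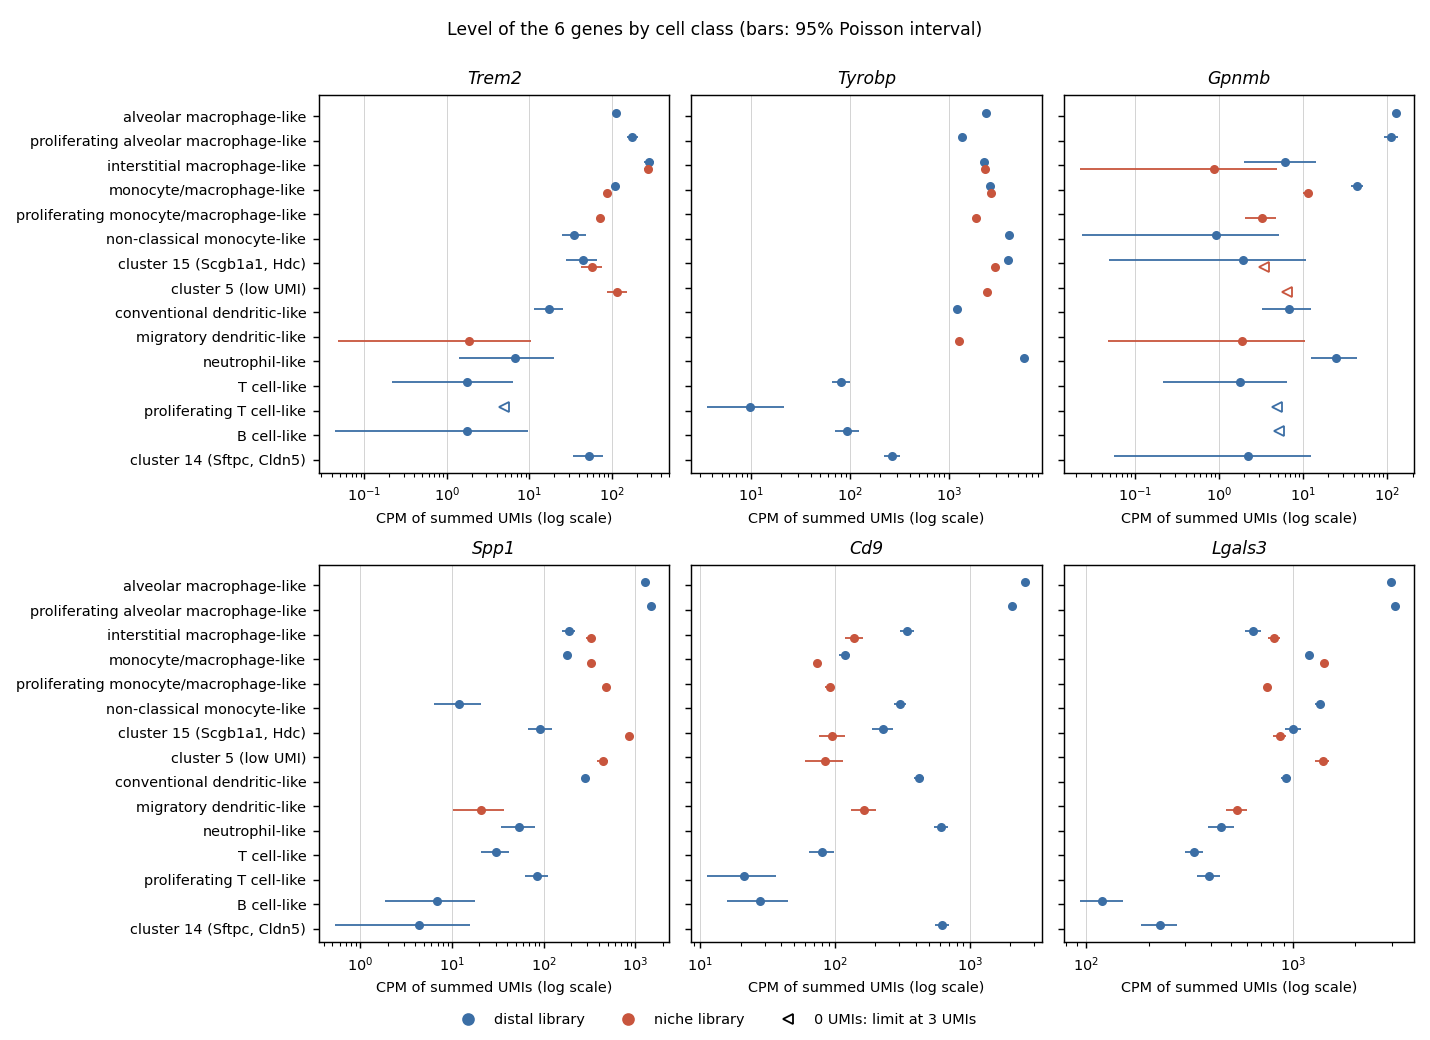
Level of each gene in each class of at least 50 cells, as CPM of summed UMIs on a log axis, with 95% Poisson intervals. Points are libraries, and open triangles mark the limit of 3 UMIs where none was counted. Gpnmb stands highest in alveolar macrophage-like cells at 128 CPM and Trem2 in interstitial macrophage-like cells at 282 and 274 CPM.

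The receptor Trem2 was highest in interstitial macrophage-like cells, at 282 CPM (248 to 321) in the distal and 274 CPM (244 to 306) in the niche library. Proliferating alveolar macrophage-like cells followed at 178 CPM (152 to 206), then alveolar macrophage-like cells at 113 CPM (106 to 121) and distal monocyte/macrophage-like cells at 111 CPM (99.8 to 122). The last 2 overlapped, and so did the 116 CPM (87.2 to 151) of a niche cluster of low UMI count. Niche monocyte/macrophage-like cells had 86.3 CPM (82.8 to 89.97), their proliferating counterparts 72.4 CPM, and non-classical monocyte-like cells of the distal library 35.3 CPM (24.97 to 48.4). Lymphocytes carried almost none, with 2 UMIs in 300 distal T cell-like cells and 1 UMI in 199 distal B cell-like cells.

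Tyrobp, the adaptor, did not follow its partner. Neutrophil-like cells had the highest level among classes of at least 50 cells, 5798 CPM (5576 to 6025) in the distal library, and non-classical monocyte-like cells 4054 CPM (3934 to 4176). Monocyte/macrophage-like cells had 2603 CPM (2549 to 2657) and 2689 CPM (2669 to 2709) in the distal and niche library, close to alveolar macrophage-like cells at 2359 CPM and interstitial macrophage-like cells at 2277 and 2341 CPM. Across these macrophage classes Tyrobp therefore spanned a narrow range, with proliferating cells lower at 1345 to 1879 CPM, whereas T cell-like cells of the distal library had 81.3 CPM.

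Gpnmb was a gene of alveolar macrophages in the distal library, where alveolar macrophage-like cells had 128 CPM (121 to 136) and held 75.5% of all its UMIs. The monocyte/macrophage-like class had 43.3 CPM (36.6 to 50.9) in the distal and 11.3 CPM (10.0 to 12.6) in the niche library, where it held 88.4% of the gene's UMIs. Interstitial macrophage-like cells, which led for Trem2, had 5 Gpnmb UMIs in the distal and 1 in the niche library. The receptor was thus higher in interstitial than in monocyte/macrophage-like cells of both libraries, and the glycoprotein lower. In neutrophil-like cells all 11 Gpnmb UMIs came from 1 cell.

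Among classes of at least 50 cells, Spp1, Cd9 and Lgals3 all stood highest in alveolar macrophage-like cells of the distal library and their proliferating counterparts. Below that size, 7 distal platelet-like cells had 14966 CPM of Cd9, a known platelet protein. Spp1, the secreted ligand, had 1283 CPM (1259 to 1307) in alveolar macrophage-like cells and 1497 CPM (1421 to 1577) in their proliferating counterparts. Distal and niche monocyte/macrophage-like cells had 181 and 326 CPM of it. The tetraspanin Cd9 had 2590 CPM (2555 to 2625) in alveolar macrophage-like cells and 118 and 73.9 CPM in monocyte/macrophage-like cells. Distal T cell-like cells had 79.5 CPM of Cd9 (64.0 to 97.8), between the levels of the distal and niche class, and distal B cell-like cells 27.7 CPM (15.8 to 45.0). T cells are known to carry CD9, and free RNA of alveolar macrophages can also give such UMIs: the 10 alveolar markers summed to 115 CPM in these T cell-like cells, and the part of either in the Cd9 level was not tested. Lgals3 was less uneven, with 2972 CPM in alveolar macrophage-like cells, 1193 and 1406 CPM in monocyte/macrophage-like cells and 639.5 and 808 CPM in interstitial macrophage-like cells.

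**Figure D2:**
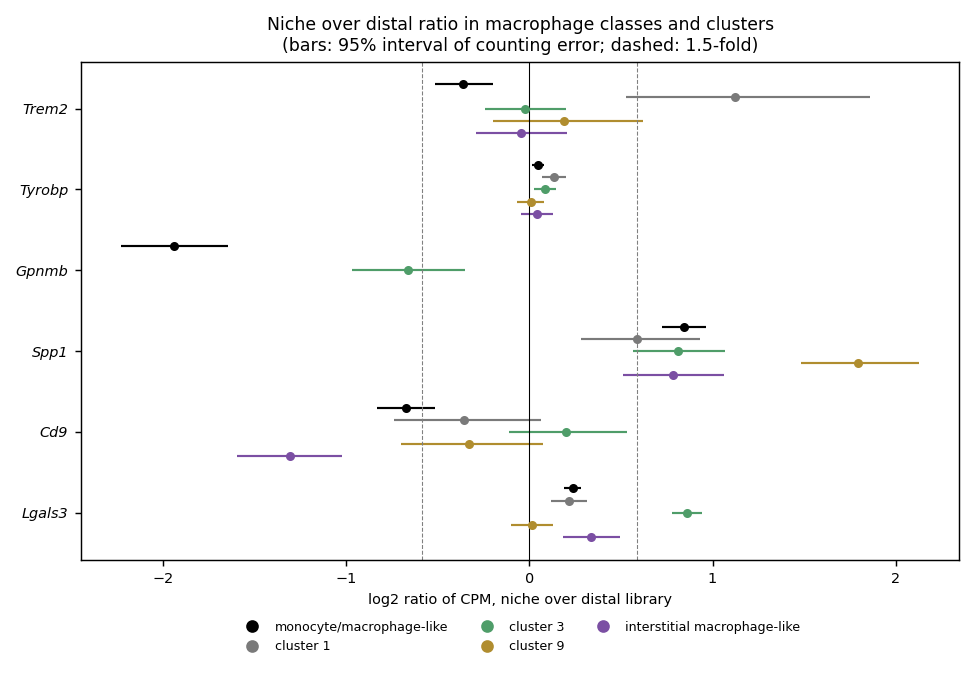
Log2 ratio of CPM, niche over distal, with its 95% interval of counting error, for each gene with at least 100 UMIs in a class or cluster; dashed lines mark 1.5-fold. Gpnmb is lowest at -1.94 in the monocyte/macrophage-like class and stands at -0.67 within cluster 3, while Spp1 is above 0 in all 5 units.

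Between the libraries, 2 of the 6 genes differed beyond 1.5-fold in monocyte/macrophage-like cells, meaning that the whole interval of the ratio lay past that fold: Spp1 was higher and Gpnmb lower in the niche library. By the same rule 1.53% of 9131 genes were higher and 2.21% lower, and the median log2 ratio of all these genes was -0.01. Tyrobp was level, at 2603 and 2689 CPM and a log2 ratio of 0.05 (0.02 to 0.08). Lgals3 was 0.24 (0.19 to 0.28) higher. Trem2 had a log2 ratio of -0.36 (-0.52 to -0.20) and Cd9 of -0.68 (-0.83 to -0.52), both short of the rule. The genes thus did not move as 1 group.

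The lower niche level of Trem2 in the pooled class was not seen in the clusters with at least 50 cells in both libraries. Within cluster 3 its levels were 226 CPM in the distal and 223 CPM in the niche library (log2 ratio -0.03, -0.24 to 0.20), and within cluster 9, led by Ccl7 and Ccl2, 73.6 and 84.6 CPM (0.19, -0.20 to 0.62). Within cluster 1 the niche library was higher, 60.0 against 26.96 CPM, on 21 distal UMIs (1.12, 0.53 to 1.86). In cluster 2, with 47 distal cells, it was lower, 76.1 against 117 CPM. With niche clusters weighted as in the distal library, the log2 ratio was 0.09. Cluster 3, where Trem2 was high, held 35.1% of the class in the distal and 13.7% in the niche library, and the part of this in the pooled ratio was not tested. With finer clusters the pooled ratio was -0.61. The 5% of cells with the highest scores of a doublet caller also mattered, as they held 109 of the 376 distal Trem2 UMIs of the class. Without them the class had a log2 ratio of -0.04 (-0.22 to 0.15). Cluster 3 then had 170 CPM in the distal and 227 CPM in the niche library (0.42, 0.16 to 0.68), higher in the niche library but short of the rule.

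Gpnmb had 147 UMIs in the distal and 291 in the niche monocyte/macrophage-like cells, or 43.3 and 11.3 CPM, a log2 ratio of -1.94 (-2.23 to -1.65). Cluster 3 held 142 of the 147 and 232 of the 291. Within that cluster the levels were 135 and 85.3 CPM, a log2 ratio of -0.67 (-0.97 to -0.35) that was not beyond 1.5-fold, and weighting niche clusters as in the distal library gave -0.61. These intervals treat UMIs as independent, which they are not here, because the UMIs came from few cells: 17 of 393 distal and 52 of 1974 niche cells held any.

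The direction of the Gpnmb difference hung on cells with high doublet scores. In the distal class, 40 of 393 cells were among the 5% of the library with the highest scores of a doublet caller that itself called almost no doublets, and these 40 held 132 of the 147 Gpnmb UMIs. In the niche class the 98 such cells held 17 of 291. With all cells of high score left out and the rest clustered anew, the log2 ratio turned to 0.80 (0.17 to 1.59). Within cluster 3, the 15 distal cells of high score held 131 of its 142 Gpnmb UMIs, and the other cells had 11.98 CPM in the distal and 87.1 CPM in the niche library (2.80, 1.996 to 3.88, beyond 1.5-fold upward). In the 40 distal cells Gpnmb stood at 390 CPM and the summed alveolar markers at 213 CPM, where alveolar macrophage-like cells had 128 and 6332 CPM. The other 353 distal cells of the class had 85.7 CPM of alveolar markers. Within cluster 3 the sum was 301 CPM in the 15 distal cells and 47.9 CPM in the other 123. In the niche class it was lower in cells of high score, 11.7 CPM against 22.8 CPM in the others. Whether the 40 distal cells are doublets was not tested.

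Spp1 was higher in the niche library in the class and in each of its clusters with at least 50 cells in both libraries. In the monocyte/macrophage-like class it had 616 distal and 8412 niche UMIs, or 181 and 326 CPM, a log2 ratio of 0.84 (0.73 to 0.96). The log2 ratio was 0.59 (0.28 to 0.93) within cluster 1, 0.81 (0.57 to 1.07) within cluster 3 and 1.79 (1.49 to 2.13) within cluster 9. Without the cells of high doublet score, cluster 3 went from 96.9 to 270 CPM (1.47, 1.16 to 1.81), which was beyond 1.5-fold. Of the 3 with all cells only cluster 9, from 105.5 to 367 CPM, was beyond 1.5-fold. Cluster 2, led by Cxcl9, Gatm and Tgfbi, had the highest levels of these clusters and not a higher one in the niche library, with 627 CPM (553 to 708) in its 47 distal and 553 CPM (536 to 571) in its 530 niche cells. Cluster 9 also carried markers of other cells, all in sums over 8 genes: neutrophil markers at 2067 CPM in its distal and 212 CPM in its niche cells, T cell markers at 854 and 500 CPM and B cell markers at 949 and 462 CPM. Their part in its Spp1 difference was not tested. Without this cluster the class had a log2 ratio of 0.63 (0.50 to 0.76), no longer beyond 1.5-fold. The same was so with at least 500 genes per cell (0.58), with finer clusters (0.55) and with the 6 genes kept among the clustering genes (0.52). Outside the class, cluster 15, led by Scgb1a1, Bpifa1 and Hdc and given no name, went from 92.1 to 849 CPM of Spp1 (3.19, 2.78 to 3.66).

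Lgals3 differed most in cluster 3, from 1447 to 2627 CPM (0.86, 0.78 to 0.94), and this was beyond 1.5-fold, as it was without the cells of high doublet score (1.29). In clusters 1 and 9 the log2 ratios were 0.22 and 0.01. Cd9 within the clusters had intervals that spanned 0 in all 3: -0.36 in cluster 1, 0.20 in cluster 3 and -0.33 in cluster 9. Without the cells of high score, cluster 3 had 63.2 CPM of Cd9 in the distal and 121 CPM in the niche library (0.92, 0.52 to 1.36). Over the class its call depended on the clustering, as the ratio passed 1.5-fold with finer clusters (-0.87), with the 6 genes kept for clustering (-0.97) and without cluster 9 (-0.78), and stood at -0.23 without the highest doublet scores.

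With all interstitial macrophage-like cells, Cd9 alone of the 6 genes differed beyond 1.5-fold, from 345 to 139 CPM, a log2 ratio of -1.31 (-1.60 to -1.03). Of 2577 genes in these cells 2.56% were higher and 1.4% lower by this rule, around a median of 0.10. Alveolar macrophage markers moved with it, from 144 CPM with 8 of 10 detected to 9.56 CPM with 3 of 10 detected, and their part in the Cd9 difference was not tested. Distal cells outside the highest doublet scores still had 278 CPM of Cd9, with 57.4 CPM of alveolar markers, and the ratio remained beyond 1.5-fold (-0.92, -1.23 to -0.62). Trem2 was level at 282 and 274 CPM (-0.05, -0.29 to 0.20), and so was Tyrobp (0.04). Spp1 went from 189 to 325 CPM, a log2 ratio of 0.78 (0.51 to 1.06) short of the rule. It passed the rule without the cells of high score, of which 6 distal cells held 53 of 157 Spp1 UMIs, from 133 to 335 CPM (1.33, 1.02 to 1.67). Lgals3 went from 639.5 to 808 CPM (0.34, 0.18 to 0.49).

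**Figure D3:**
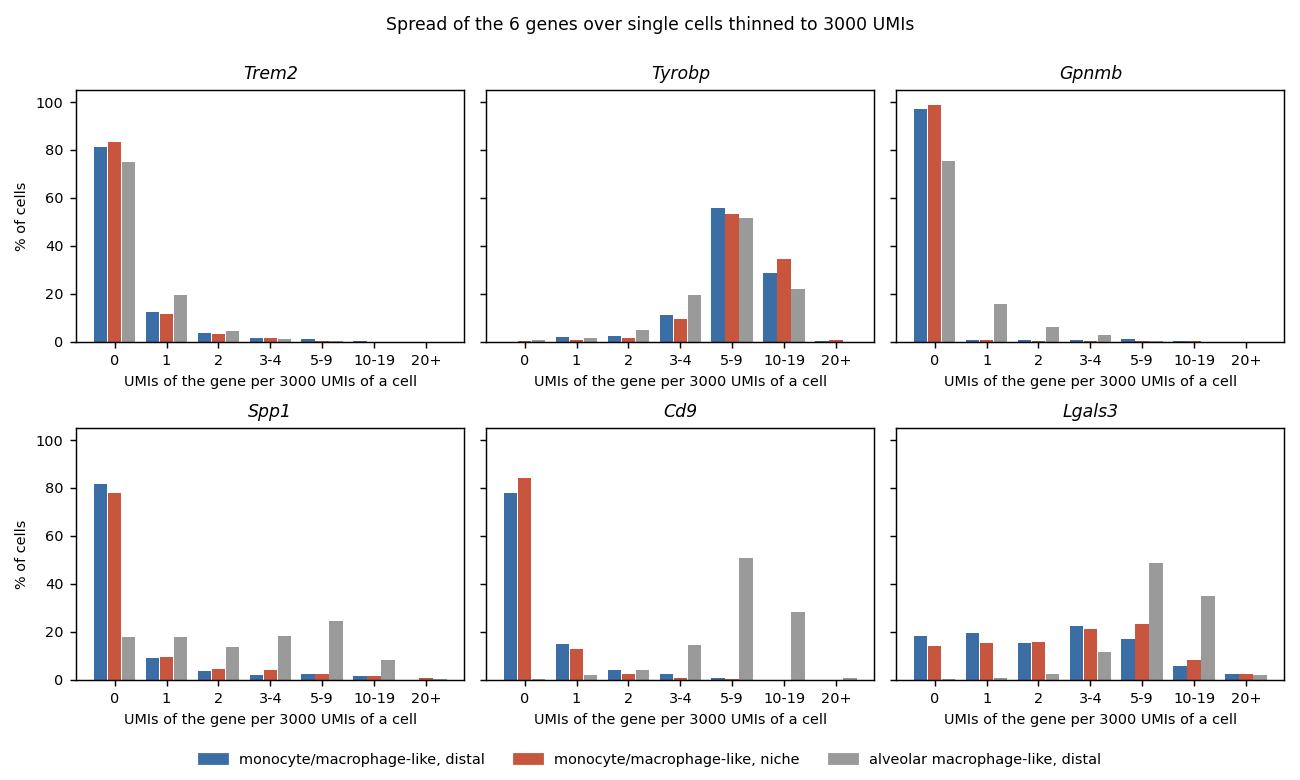
Percent of cells by number of UMIs of each gene, after thinning every cell to 3000 UMIs, in monocyte/macrophage-like cells of both libraries and distal alveolar macrophage-like cells. Tyrobp is found in nearly every cell, Gpnmb in 2.87% and 1.26% of monocyte/macrophage-like cells and 24.8% of alveolar macrophage-like cells.

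To compare single cells at equal depth, each cell was thinned to 3000 UMIs, which kept 383 of 393 distal and 1912 of 1974 niche monocyte/macrophage-like cells. Tyrobp was detected in 383 of 383 distal and 1910 of 1912 niche cells. Lgals3 was found in 82.0% (77.8 to 85.7) and 85.9% (84.3 to 87.5). The other 4 genes were each found in a minority of cells, so their class levels are averages over cells with and without a UMI.

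Trem2 had a UMI in 18.8% of distal (15.01 to 23.1) and 16.6% of niche cells (14.9 to 18.3). In T cell-like cells of the distal library, 106 cells deep enough with a median depth of 5060 UMIs before thinning, none had one, which allows up to 2.83%. Spp1 was found in 18.5% (14.8 to 22.8) and 22.2% (20.3 to 24.1), against 4.72% of those T cell-like cells. Unthinned, with median depths of 7749 and 11943.5 UMIs, the Spp1 shares were 27.2% and 40.8%, a gap that thinning narrowed. Cd9 was found in 21.9% (17.9 to 26.4) of distal and 16.0% (14.4 to 17.7) of niche cells, and in 15.1% (8.88 to 23.4) of distal T cell-like cells, so the intervals did not set either share apart from that in T cells. Gpnmb was found in 11 of 383 distal cells, 2.87% (1.44 to 5.08), and 24 of 1912 niche cells, 1.26% (0.81 to 1.86), intervals that overlapped. No T cell-like cell had it. The shares in B cell-like cells of the distal library were 0 of 56 for Trem2, Gpnmb and Spp1 and 8.93% for Cd9.

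The spread over cells set Spp1 and Gpnmb apart from Tyrobp. The Fano factor, the variance over the mean and 1 for pure counting noise, was 1.45 for Tyrobp in both libraries, 3.20 and 1.86 for Trem2 and 2.03 and 1.54 for Cd9 (distal, then niche). For Spp1 it was 5.56 and 12.03. The highest 10% of cells held 84.5% and 83.1% of the thinned Spp1 UMIs, and single cells reached 13 and 56 of 3000 UMIs. In the niche library 43 of 1912 cells had 10 or more Spp1 UMIs, in the distal library 5 of 383. Gpnmb had Fano factors of 6.53 and 5.02, and the cells that had it held a mean of 4.64 and 2.96 UMIs. It was thus found in few cells and at uneven strength. Just 1 UMI was held by 2 of the 11 distal Gpnmb cells and by 11 of the 24 in the niche library. Before thinning, 132 of the 147 distal Gpnmb UMIs lay in cells of high doublet score. Lgals3 combined wide detection with Fano factors of 6.12 and 6.74 and single cells of up to 34 and 57 UMIs.

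In alveolar macrophage-like cells the same genes were spread differently. Of 1103 thinned distal cells, 99.8% had Cd9, 99.7% Lgals3 and 82.1% Spp1 (79.7 to 84.4), whereas Trem2 and Gpnmb were found in 25.02% and 24.8%. Gpnmb had a Fano factor of 1.61 there and at most 5 UMIs in a cell, against 10 in the monocyte/macrophage-like class of either library. Among interstitial macrophage-like cells Trem2 was found in 43.1% (34.2 to 52.3) of 123 distal and 53.3% (42.5 to 63.9) of 90 niche cells. Gpnmb was found in none of either, which allows up to 2.44% and 3.33%.

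**Figure D4:**
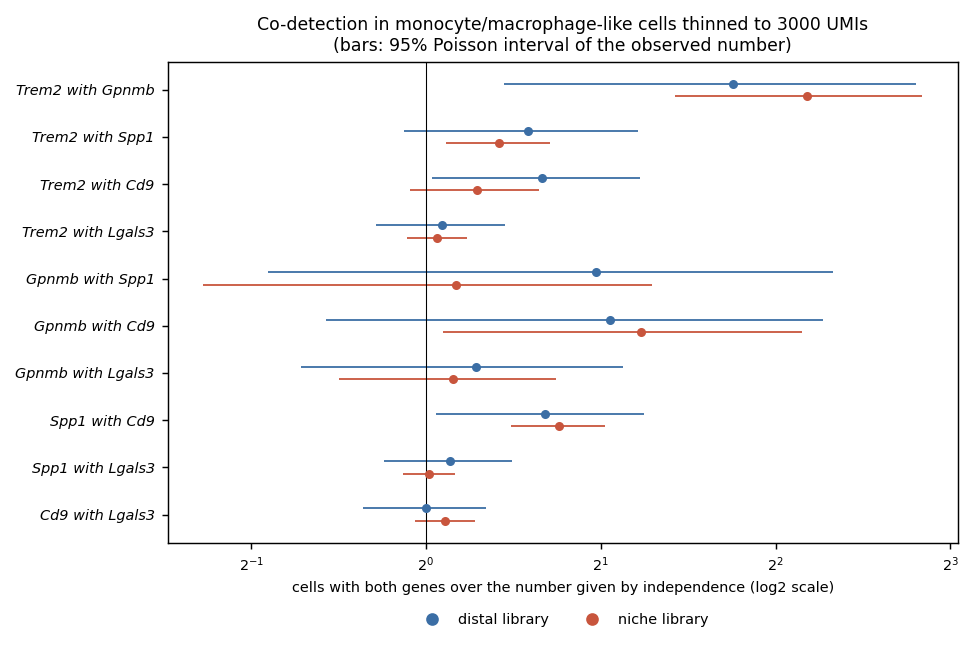
Number of monocyte/macrophage-like cells with both genes of a pair, divided by the number that independent detection would give, on a log2 axis, with 95% Poisson intervals of the observed number; pairs with Tyrobp are left out because nearly every cell has it. Trem2 with Gpnmb stands highest, at 3.39 in the distal and 4.52 in the niche library.

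Trem2 and Gpnmb were found in the same cells more often than their single shares would give. In the thinned distal class 7 cells had both where independence gives 2.07, a ratio of 3.39, and in the niche class 18 had both where it gives 3.98, a ratio of 4.52. Of the Gpnmb cells, 63.6% of 11 and 75.0% of 24 also had Trem2, whereas 17.5% and 15.8% of cells without Gpnmb did. Gpnmb was the rarer gene, and 9.72% and 5.68% of Trem2 cells had it. Within cluster 3 alone the ratios were 2.64 and 2.97, with 7 of 10 distal and 15 of 17 niche Gpnmb cells carrying Trem2, so the pairing was also seen inside the cluster that held most of these cells. Without the highest doublet scores the class ratios were 6.03 and 4.25. The first rested on few cells, as distal cells of the class outside those scores held 15 Gpnmb UMIs before thinning. In cluster 1 alone the ratios rested on few cells. They were 0 in the distal library, with 1 Gpnmb cell, and 3.90 in the niche library, with 4 Gpnmb cells.

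Spp1 was paired with Cd9. In the niche class 115 cells had both where independence gives 67.9, a ratio of 1.69, and in the distal class 25 where it gives 15.6, a ratio of 1.61. Within clusters the distal library had few such cells: the ratios were 0.619 in cluster 1, on 1 cell, and 1.83 in cluster 3, on 7 cells, and those of the niche library 1.70 and 2.36. Trem2 with Spp1 gave 1.498 (20 cells) and 1.34 (94 cells), and the interval of the first spanned 1. Gpnmb with Spp1 gave 4 cells against 2.04 and 6 cells against 5.32, both with intervals around 1. All 3 of Trem2, Gpnmb and Spp1 were found in 2 of 383 distal cells (0.52%, 0.06 to 1.87) and 6 of 1912 niche cells (0.31%, 0.12 to 0.68). Independence gives 0.38 and 0.88 cells. Lgals3, present in most cells, gave ratios of at most 1.22 with each of the other 4.

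In alveolar macrophage-like cells 61 of 1103 had all 3 of Trem2, Gpnmb and Spp1, near the 56.1 of independence. The 3 genes were thus joint there about as often as their shares alone give.

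**Figure D5:**
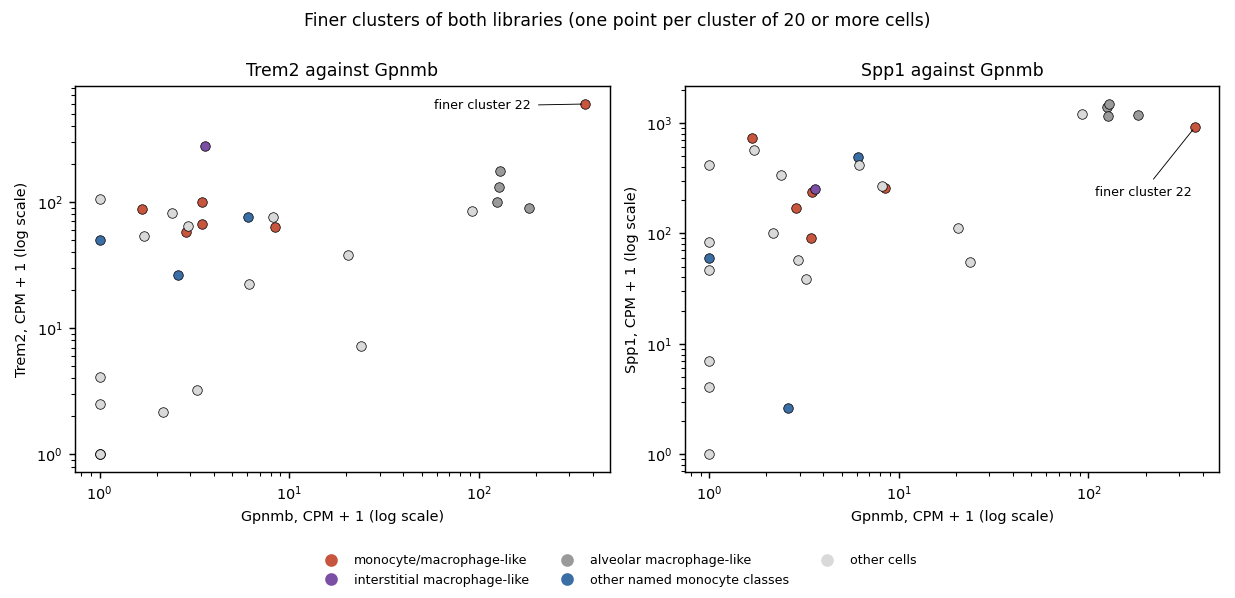
Each point is a cluster of a finer division of both libraries with at least 20 cells; axes are CPM plus 1 on log scales, with Gpnmb on the horizontal axis and Trem2 (left) or Spp1 (right) on the vertical. Finer cluster 22, which was chosen by its Gpnmb level, is highest for Gpnmb and Trem2 (364 and 595 CPM). For Spp1 it lies below alveolar macrophage-like clusters.

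A finer division of the cells, into 33 clusters and again without the 6 genes, placed most Gpnmb UMIs of these cells in finer cluster 22. The cluster was singled out after its values had been seen, as the monocyte/macrophage-like finer cluster with the most Gpnmb per UMI. Its high Gpnmb among these clusters therefore follows from the choice. It held 30 distal cells, 0.85% of the library (0.57 to 1.21), and 75 niche cells, 2.44% (1.92 to 3.04), with 18 and 64 of them from cluster 3. Its leading genes besides Gpnmb, Trem2 and Lgals3 were Fabp5, which binds fatty acids, Mmp12, a macrophage elastase, Cd63, a lysosomal tetraspanin, Acp5, Apoc2, Hal and Syngr1. It held 132 Gpnmb UMIs in the distal and 231 in the niche library, where the whole monocyte/macrophage-like class had 147 and 291. The sets differ in part, as 5 of its 30 distal cells came from clusters outside that class.

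Within finer cluster 22, Trem2 stood at 752 CPM (643 to 874) in the distal and 549 CPM (498 to 604) in the niche library, above every other finer cluster of at least 20 cells when both libraries were pooled. Gpnmb stood at 587 CPM (491 to 696) and 299 CPM (262 to 340), on 11 of 30 and 22 of 75 cells with a UMI. Lgals3 had 4083 and 6188 CPM. Spp1 had 756 CPM (647 to 879) and 963 CPM (895 to 1035), and Cd9 641 and 308 CPM, while Tyrobp was at 2558 and 2533 CPM, the level of the class. Trem2, Spp1, Cd9 and Lgals3 thus all stood above their class levels in this cluster as a whole. So did Gpnmb, by which the cluster was chosen. At 3000 UMIs only 32.1% and 23.3% of its cells had Gpnmb, and 39.3% and 37.0% Spp1. Lgals3 was found in each of its 28 and 73 thinned cells. All 3 of Trem2, Gpnmb and Spp1 were found in 2 of the 28 and 5 of the 73, near the 2.40 and 3.62 cells of independence.

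Of the 30 distal cells of finer cluster 22, 21 were among the highest doublet scores, 70.0% (50.6 to 85.3), and they held 128 of its 132 Gpnmb UMIs. Of the 75 niche cells 1 was, 1.33% (0.03 to 7.21). Spp1 was likewise uneven, with 1043 CPM in the 21 and 115 CPM, from 8 UMIs, in the 9 other distal cells, which is below the class level of 181 CPM. Cd9 had 785 and 317 CPM. Trem2 had 701 CPM in the 21 and 864 CPM in the 9. Alveolar markers summed to 89.0 CPM in the distal and 45.3 CPM in the niche cells. The sum was 122 CPM in the 21 distal cells of high score and 14.4 CPM in the 9 others. Ear1 had 44.5 CPM and Pparg 35.6 CPM in the distal cells. In the niche cells Chil3 had 27.2 CPM and Pparg 16.8 CPM. Fabp1, Krt79, Marco and Cidec were at 0 in both.

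Cells with much Spp1 formed another finer cluster, number 6, with 37 distal and 311 niche cells and led by Gatm and Tgfbi. It too was singled out after its values had been seen. Spp1 stood there at 542 CPM (462 to 632) in the distal and 734 CPM (708 to 760) in the niche library, below finer cluster 22 in both, but above the 115 CPM of its 9 distal cells without high doublet scores. Gpnmb was at 0 UMIs in the distal and 3 UMIs in the niche cells, and Trem2 at 83.7 and 87.3 CPM, against 752 and 549 CPM in finer cluster 22. High Spp1 thus stood in a finer cluster with Gpnmb and in another nearly without it. These are levels of clusters chosen after their values had been seen, and they do not show both genes in the same cells.

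The genes most like each member over cells were ranked by Pearson's r on log2(1 + thinned UMIs), taking the lower of the 2 libraries (383 and 1912 cells) over 2984 genes. The cells of a library share its droplets, and r is given as a description. For Gpnmb they were Fabp5 (0.58 in the distal and 0.24 in the niche library), Ctsd, Aig1, Hexa and Ctsl, of which Ctsd, Hexa and Ctsl encode lysosomal enzymes. For Trem2 they were Ctsd (0.29 and 0.25), Apoe, for an apolipoprotein that TREM2 binds, Ctsl, Timp2 and Fabp5. Fabp5, Ctsd and Ctsl were thus on both lists. Ctsd overlaps a gene held by 1 matrix only. Lgals3 was most like Ctsb (0.40 and 0.40), Ftl1, Fabp5, Cstb and Rnh1. Spp1 had other neighbours: Crip1 (0.21 and 0.18), Tagln2, Lgals1, Lmna and Ccl9. Cd9 shared Crip1 (0.27 and 0.17) and Ccl9 with it, beside Anxa3, Timp2 and Capg. Tyrobp was most like Lst1 (0.21 and 0.22), Ftl1, Itm2b, Fcer1g, which encodes another signalling adaptor, and Clec4a3. The medians over all candidates lay between -0.03 and -0.02, and the 99th percentiles between 0.060 and 0.168.

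The lists below are read against all 9131 genes of these cells, of which 1.53% were higher and 2.21% lower beyond 1.5-fold, with a median of -0.01. The monocyte/macrophage-like class differed in make-up between the libraries. Cluster 3, with Apoe among its leading genes, was 35.1% of it in the distal and 13.7% in the niche library. List values were not taken within clusters, and the part of make-up in them was not tested. The class also differed in markers of other cells, from the distal to the niche library: neutrophil markers went from 582 to 84.6 CPM, B cell markers from 254 to 84.8 CPM and T cell markers from 216 to 84.8 CPM, and their part in the list values was not tested. Around the receptor, 25 genes of TREM2 and DAP12 signalling had 11 log2 ratios above and 14 below 0 in monocyte/macrophage-like cells, with a median of -0.02, and none was beyond 1.5-fold. Fcer1g had the most UMIs, at 2897 and 3312 CPM (0.19). Of the 12 listed receptors linked to DAP12, directly or not, 11 had at least 20 UMIs. Of these 10 were below 0 and none beyond 1.5-fold, with a median of -0.26. Csf1r, the receptor for the growth factor CSF1, had the most UMIs and went from 342 to 288 CPM (-0.25). Of 5 listed TREM2 and lipid ligands 4 had at least 20 UMIs, all 4 were below 0 and 3 were lower beyond 1.5-fold: Apoe from 6227 to 2992 CPM (-1.06, -1.08 to -1.04), Anxa2 from 253 to 143 CPM (-0.82) and Anxa1 from 168 to 95.5 CPM (-0.82), the last 2 encoding annexins. Of 6 genes listed for the shedding of TREM2 and GPNMB from the surface, 4 were above and 2 below 0, with a median of 0.11 and none beyond 1.5-fold; Adam17 was at 109 and 106 CPM.

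Among 10 osteopontin receptors 6 were above and 4 below 0, with a median of 0.06. Lower beyond 1.5-fold were 2 of them, the hyaluronan and osteopontin receptor Cd44, from 153 to 88.3 CPM (-0.80, -0.93 to -0.65), and the integrin subunit Itgam, from 86.9 to 47.3 CPM (-0.88, -1.06 to -0.69), which overlaps a gene held by 1 matrix only. Itgax, another integrin subunit, had the most UMIs, at 136 and 169 CPM (0.31). Spp1 itself was higher in the niche library in this monocyte/macrophage-like class. Over all kept cells it was lower there, at 666 CPM in the distal and 366 CPM in the niche library. None of the 10 receptors was higher beyond 1.5-fold in the class, and of all 9131 genes only 1.53% were.

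The MiT/TFE lysosome list had 14 of 19 genes below 0, with a median of -0.17 and none called. Atp6v0d2, a proton pump subunit named after its values were seen, had 16.2 and 1.70 CPM (-3.25, -3.85 to -2.65) but 99 UMIs, under the minimum of 100. The most abundant gene of the list, the protease Ctsb, went from 1769 to 2476 CPM (0.48). Of 15 tetraspanins and CD9 partners 9 were below 0, with a median of -0.29; Cd37, a tetraspanin of leukocytes, was lower beyond 1.5-fold, from 76.9 to 24.6 CPM (-1.65, -1.85 to -1.43), and Cd63 was at 369 and 507 CPM (0.46). Galectins and partners, 6 of 8 with at least 20 UMIs, had 5 above 0, with a median of 0.21 and none beyond 1.5-fold, Lgals1 being at 1017 and 1314 CPM (0.37). Of 20 genes of lipid-associated macrophages 10 were above and 10 below 0, with a median of -0.01, and only Apoe and Fabp4, a fatty acid binding protein at 9.72 and 2.67 CPM (-1.87, -2.48 to -1.22), were lower beyond 1.5-fold. Fabp4 is known as a gene of alveolar macrophages, whose summed markers stood at 98.4 and 22.0 CPM in the same cells, and their part in it was not tested. Fth1, the ferritin heavy chain, had the most UMIs of that list, at 13588 and 14315 CPM (0.08).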

How the data were processed

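The deposited values are raw UMI counts per gene and cell barcode, made by the authors with Cell Ranger, version 3.0.2 in the distal and 6.0.0 in the niche matrix per the file headers; Seurat 4.1.1, Bowtie2, RSEM and Cell Ranger 3.02 are named, with the builds mm10 and GRCm38, per the submitters' processing notes. The different versions and gene lists cannot be told apart from the groups. The 29413 shared Ensembl identifiers were kept, of which 442 overlap a gene of 1 list only. Barcodes under 200 genes or over 10% mitochondrial UMIs were removed. Scrublet (in scanpy 1.11.5, expected rate 0.03) called 5 doublets, 0.0755% of cells, so it did not work as a caller, and its scores were used as an alternative. Cells were clustered without the 6 genes on 2000 variable genes, 30 components and 20 neighbours (Leiden, resolution 1, and 1.5 for the finer clusters) and named from marker lists, with naming thresholds set after the clusters had been seen. The 6 genes and all lists were chosen with earlier results of these data known.

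UMIs were summed per class and library and given as CPM with exact Poisson intervals, shares of cells with exact Clopper-Pearson intervals, and a count of 0 with the limit of 3 counts. Log2 ratios used 0.5 UMI as pseudocount, and a difference was called beyond 1.5-fold where its whole interval was past that fold with at least 100 UMIs over both libraries. PCR duplicates are removed by UMIs, but UMIs of 1 cell are not independent, and intervals cover counting error only. Of each list (genes with at least 20 UMIs), the genes past the rule, at most 4 by size, and the most abundant were named, and for each of the 6 genes the 5 most alike with at least 500 UMIs and a UMI in 10% of thinned cells. The calculations were tested on simulated data. Alternatives varied cell filters, doublet scores, clustering, scaling, thinning and cluster make-up; leaving out finer cluster 22, cluster 9, cluster 23 or shared barcodes, or cells of high doublet score within the same clusters, was added after seeing the data.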

Additional observations from a re-analysis of the deposited data

How the results depend on the processing

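No paired analysis was possible because each group has 1 library, so the groups share fewer than 2 replicate numbers. For the log2 ratios of the 6 genes in monocyte/macrophage-like cells, 54 values under the alternatives lay inside the interval of all cells and the others outside it; the cause was not tested. The sign changed under 5 of 16 alternatives for Trem2, 3 for Gpnmb, 1 for Cd9 and none of the 16 for Tyrobp, Spp1 or Lgals3.

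Filters. Spp1 was 0.97 with at most 5% mitochondrial UMIs and 0.58 with at least 500 genes. Without the highest 5% of doublet scores Gpnmb turned to 0.80, and Trem2 was 0.037, Tyrobp 0.014, Cd9 -0.23 and Lgals3 0.37.

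Clustering. At resolution 1.5 Trem2 was -0.61, Spp1 0.55 and Cd9 -0.87, with 120 genes lower in place of 202. With the 6 genes kept for clustering these were -0.65, 0.52 and -0.97, with 132 genes lower. As a mean over cells Gpnmb was -1.34 and Spp1 0.59.

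Make-up. Within cluster 1 Trem2 was 1.12, Tyrobp 0.13, Gpnmb 0.28 (turned, on 2 distal UMIs), Spp1 0.59 and Cd9 -0.36. Within cluster 3 Trem2 was -0.025, Tyrobp 0.086, Gpnmb -0.67, Cd9 0.20 and Lgals3 0.86. Within cluster 9 Trem2 was 0.19, Tyrobp 0.0061, Gpnmb 1.02 (turned, on 1 distal UMI), Spp1 1.79, Cd9 -0.33 and Lgals3 0.013. With niche clusters weighted as in the distal library Trem2 was 0.088, Gpnmb -0.61, Spp1 0.67, Cd9 -0.51 and Lgals3 0.42. The next settings were added after seeing the data. Without finer cluster 22 Trem2 was 0.00036, Gpnmb -1.09, Spp1 0.97, Cd9 -0.51 and Lgals3 0.32, and without cluster 9 Spp1 was 0.63, with 119 genes lower.

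Detection. The niche share minus the distal share was -1.58 percentage points for Tyrobp at 1500 UMIs and 9.47 for Spp1 at 6000 UMIs. Unthinned it was -0.456 for Tyrobp, 13.6 for Spp1, and 7.51 for Trem2 and 1.55 for Cd9, which both turned sign. Without the highest doublet scores it was 8.68 for Spp1, and 0.844 for Gpnmb and 0.850 for Trem2, which both turned sign.

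Co-detection over independence. At 1500 UMIs Trem2 with Spp1 was 2.44 (distal) and 1.64 (niche), and in the niche library Trem2 with Cd9 1.97 and Gpnmb with Cd9 4.53. At 6000 UMIs Spp1 with Cd9 was 1.40 (niche). Without the highest doublet scores Gpnmb with Lgals3 was 0.607 (distal). In cluster 1 alone Trem2 with Gpnmb was 0 (distal), Trem2 with Cd9 0.688 (distal), Spp1 with Cd9 0.619 (distal), and Gpnmb with Spp1 and with Cd9 0 in both libraries. Of the lists, the shedding genes had 1 gene below 0 with at least 100 UMIs required, and 1 osteopontin receptor was past 1.5-fold without genes that overlap a gene of 1 list only.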
